A study of Mus musculus with 10 samples.

Results

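The zinc finger genes of mouse named Zfp followed only by digits are described here at their starts and last exons in embryonic stem cells. They were chosen as the protein-coding genes of chromosomes 1 to 19 in GENCODE M21 (mm10) with such a symbol, except Zfp42, Zfp57 and Zfp352. The rule found 355 genes of the 20807 protein-coding genes on these 19 chromosomes. No measured value entered it. Each gene start was taken as a window of 1 kb either side of the 5′ end of the gene, and the last exon was that of the transcript with the longest coding sequence.

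Most of these proteins carry C2H2 zinc fingers, short loops held by a zinc ion that each read a few bases of DNA, and they carry many in a row. A large share also have a KRAB box, which recruits Trim28 and with it the histone methyltransferase Setdb1, so that the bound DNA is silenced. KRAB zinc finger genes have multiplied by tandem duplication, lie in runs of close relatives, and are best known in embryonic stem cells for silencing retroelements. H3K4me3, trimethylated lysine 4 of histone H3, marks the starts of active genes and most CpG-rich promoters. ATAC-seq shows where the Tn5 transposase can reach the DNA.

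All samples came from F123 cells, a line of embryonic stem cells whose origin is an F1 cross of Mus musculus castaneus with S129/SvJae. The cells carried no treatment or mutation, were kept with LIF on irradiated mouse embryonic fibroblasts and were passaged once on gelatin without these feeder cells. H3K4me3 ChIP-seq and ATAC-seq were each done in 2 replicates, and the authors deposited 1 list of replicated peaks for each assay, so no value has a spread between replicates. The H3K4me3 list holds 33487 peaks and the ATAC-seq list 179109, and the depth of the libraries is unknown. Of 6 markers of pluripotent cells, 6 were open at the start by ATAC-seq and 5 had an H3K4me3 peak there, Esrrb being the exception. Of 6 markers of fibroblasts, the feeder cell type, 5 had both peaks and Col3a1 had neither. A share of feeder cells in the samples was not tested.

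Members were split by their neighbours on the chromosome. A run was formed when neighbouring 5′ ends lay at most 250 kb apart, and runs of 3 or more held 192 genes, called clustered here. Another 40 genes formed 20 pairs, and the remaining genes were lone. The 31 runs lay on 14 chromosomes. The symbols fitted the family, since 343 of the 355 members had the finger pattern of C2H2 proteins in their longest coding sequence. The 12 without it include Zfp36, a CCCH protein, and the developmental factors Zfp503, Zfp703 and Zfp750. Clustered genes held the pattern of a KRAB box in 147 of 192 cases (76.6%) and lone genes in 31 cases (25.2%). The pattern misses divergent boxes.

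Promoters of 6 members show the range of sequence behind the peaks. They are those with the strongest H3K4me3 peak among clustered (Zfp866) and lone genes (Zfp384), the first clustered (Zfp986) and first lone gene (Zfp473) along the chromosomes with no peak in either list, and 2 silencing factors, Zfp809 and Zfp568. Each stretch runs from 200 bases before the 5′ end to its 30th base on the strand of the gene, in mm10, and capitals mark CpG dinucleotides.
Zfp866, chr8:69791149-69791378, minus strand: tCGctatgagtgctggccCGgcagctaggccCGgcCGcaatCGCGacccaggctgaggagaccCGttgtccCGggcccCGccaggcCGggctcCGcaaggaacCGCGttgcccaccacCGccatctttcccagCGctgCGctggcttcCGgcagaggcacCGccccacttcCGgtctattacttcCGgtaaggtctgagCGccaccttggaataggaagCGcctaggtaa
Zfp384, chr6:125008945-125009174, plus strand: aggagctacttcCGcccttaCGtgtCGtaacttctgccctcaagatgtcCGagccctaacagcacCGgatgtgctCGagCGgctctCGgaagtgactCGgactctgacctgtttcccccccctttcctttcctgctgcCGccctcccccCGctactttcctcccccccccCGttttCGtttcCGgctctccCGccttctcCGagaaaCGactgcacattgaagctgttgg
Zfp986, chr4:145868594-145868823, plus strand: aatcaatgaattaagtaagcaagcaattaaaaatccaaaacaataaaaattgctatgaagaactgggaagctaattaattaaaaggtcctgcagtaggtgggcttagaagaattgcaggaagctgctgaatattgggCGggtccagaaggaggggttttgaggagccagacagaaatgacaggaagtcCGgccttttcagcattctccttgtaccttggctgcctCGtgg
Zfp473, chr7:44751021-44751250, minus strand: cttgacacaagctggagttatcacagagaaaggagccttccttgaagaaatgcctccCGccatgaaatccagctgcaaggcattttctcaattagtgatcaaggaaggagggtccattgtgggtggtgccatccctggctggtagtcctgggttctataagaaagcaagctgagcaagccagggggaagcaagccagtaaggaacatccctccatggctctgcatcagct
Zfp809, chr9:22225514-22225743, plus strand: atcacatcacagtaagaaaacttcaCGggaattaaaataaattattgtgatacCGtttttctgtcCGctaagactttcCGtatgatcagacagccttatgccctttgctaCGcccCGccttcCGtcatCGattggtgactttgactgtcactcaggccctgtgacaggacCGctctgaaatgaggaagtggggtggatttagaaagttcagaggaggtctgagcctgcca
Zfp568, chr7:29983755-29983984, plus strand: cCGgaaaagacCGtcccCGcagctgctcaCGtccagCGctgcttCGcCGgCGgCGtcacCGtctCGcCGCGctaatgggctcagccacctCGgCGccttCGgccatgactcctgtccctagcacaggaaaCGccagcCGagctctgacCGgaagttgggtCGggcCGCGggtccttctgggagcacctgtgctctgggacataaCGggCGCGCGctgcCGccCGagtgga
The printed stretch held 22 CpGs at Zfp866 and 17 at Zfp384, and 3 at Zfp986 and 1 at Zfp473. Zfp809 held 9 and Zfp568 held 28. Over promoters of 300 bases, which run 99 bases past the 5′ end, the median was 16 CpGs for members with an H3K4me3 peak at the start and 4.5 for those without. Clustered genes had a median of 11.5 and lone genes of 20, against 13 for all coding genes.

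Most members were marked and open at their starts. An H3K4me3 peak lay at 313 of 355 starts (88.2%, 95% Wilson interval 84.4 to 91.1%), where 66.4% of all coding genes had one. ATAC-seq peaks lay at 338 starts (95.2%, interval 92.5 to 97.0%), against a background of 72.2%. Both peaks were found at 312 starts, ATAC-seq alone at 26, H3K4me3 alone at 1 and neither at 16. The lists were made by different pipelines, so the counts of starts with only one kind of peak may rest on unlike stringency. These intervals cover counting error only and take genes as independent, which neighbours in a run are not, and the same holds for the p-values.

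Clustered and lone genes did not differ beyond counting error in the peaks at their starts. H3K4me3 peaks lay at 166 of 192 clustered starts (86.5%) and at 112 lone starts (91.1%), a difference of -4.60 percentage points (95% Newcombe interval -11.4 to 2.99, two-sided Fisher's exact test p = 0.282, adjusted p = 0.376 over 4 tests). For ATAC-seq the counts were 185 clustered starts (96.4%) and 114 lone starts (92.7%), a difference of 3.67 points (interval -1.36 to 9.96, Fisher's exact test p = 0.189, adjusted p = 0.376). The 40 paired genes held 35 and 39 such starts. The direction of the H3K4me3 difference turned under several other settings, and among starts in unique sequence 130 of 133 clustered and 106 of 116 lone genes had the peak, a difference of 6.37 points (Fisher's exact test p = 0.0418, adjusted p = 0.143).

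**Figure D1:**
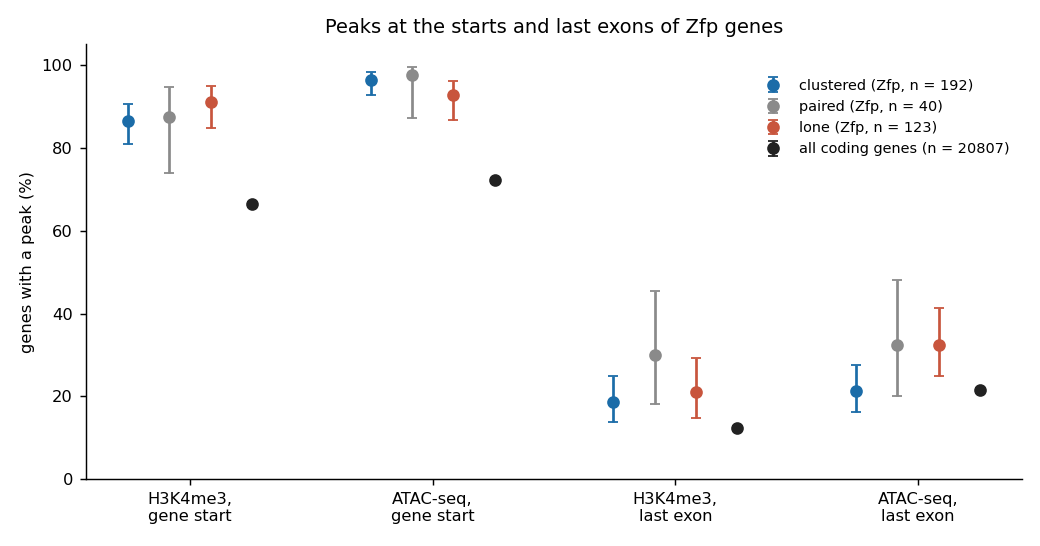
Share of genes (vertical axis, %) with an H3K4me3 or ATAC-seq peak at the gene start or in the last exon, for clustered, paired and lone Zfp genes and for all coding genes of chromosomes 1 to 19. Points are shares and bars 95% Wilson intervals: at the start, each Zfp group lies above the 66.4% and 72.2% of all coding genes, and the intervals of clustered and lone genes overlap.

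Sequence that occurs more than once in the genome was common at clustered starts. The share of 50-base words of the window that occur once in mm10 had a median of 97.2% in clustered and 100% in lone genes, and 59 clustered but 7 lone genes had under 90%. Where it was under 50%, H3K4me3 peaks lay at 2 of 21 clustered starts (9.52%, interval 2.65 to 28.9%), while ATAC-seq peaks lay at 19 of these 21 (90.5%). The 5 paired genes of this kind had H3K4me3 at 1 start and ATAC-seq at 5, but both lone genes, Zfp970 and Zfp808, had both peaks. Of all coding genes with under 50%, 5.88% carried H3K4me3 at the start and 29.1% were open by ATAC-seq. For ATAC-seq, the study's methods name no filter on reads that map to several places, and for H3K4me3 they name a pipeline at default parameters. The words are only a guide, since the read length is not given in the sources used here and the line is not of the reference strain. The part of repeated sequence in the missing H3K4me3 peaks was not tested on reads.

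The 26 starts that were open without an H3K4me3 peak were mostly of this kind. Under 90% of the words were unique at 24 of them, with a median of 17.5%. The widest such ATAC-seq peaks were those of Zfp97, Zfp781 and Zfp433. Zfp97, a paired gene on chromosome 17 with 1.38% unique words, had a peak of 946 bp over its 5′ end, and the nearest H3K4me3 peak lay 55902 bp away. Zfp781 and Zfp433 are members of the same run on chromosome 10, with 0% and 7.68% unique words and ATAC-seq peaks of 945 and 779 bp. The exceptions were Zfp648 and Zfp217, both lone and almost fully unique in sequence, with narrow ATAC-seq peaks of 177 and 224 bp. Their nearest H3K4me3 peaks lay 3359 and 5009 bp from the 5′ end. Of the 26 genes, 6 had an H3K4me3 peak within 1 kb of the start of another coding transcript.

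Starts with neither peak were poor in CpG and mostly unique. The 16 genes were Zfp683, Zfp986, Zfp992, Zfp111, Zfp626, Zfp473, Zfp869, Zfp791, Zfp558, Zfp735, Zfp616, Zfp708, Zfp759, Zfp366, Zfp957 and Zfp474. Their ratio of observed to expected CpGs, counted over 500 bases either side of the 5′ end, had a median of 0.184, and none reached 0.6, the value from which a start is called CpG-rich here. Only 4 of the 16 had under 90% unique words. In 6 of them both peaks lay at the start of another coding transcript of the gene, as at Zfp473, a factor of histone pre-mRNA processing, whose nearest H3K4me3 peak was 1505 bp from the 5′ end. For these genes the annotated 5′ end and the marked start are different places. At Zfp735 the nearest H3K4me3 peak was 406649 bp away. Zfp536, a factor of neurons, had the only H3K4me3 peak without ATAC-seq, and its nearest ATAC-seq peak lay 1309 bp from the 5′ end.

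**Figure D2:**
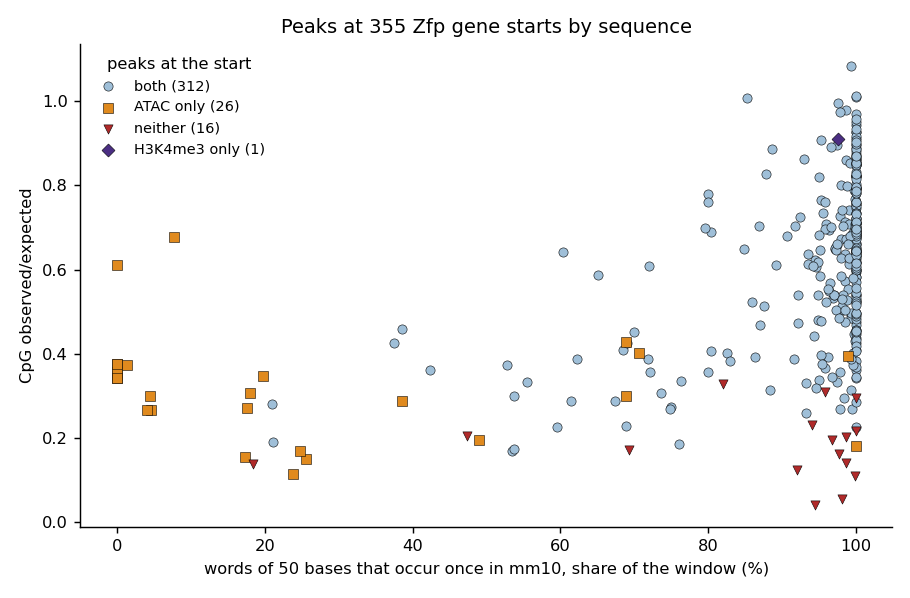
Each of the 355 Zfp gene starts by the share of 50-base words of its window that occur once in mm10 (horizontal axis, %) and by its ratio of observed to expected CpGs (vertical axis), with colour and shape giving the peaks found. Starts with ATAC-seq alone lie mostly at low unique shares, and the 16 starts with neither peak lie at the bottom, all under a CpG ratio of 0.6.

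CpG content ordered the members as it ordered other genes, but CpG-poor members were marked more often. Among the 187 CpG-rich members, 185 (98.9%) had an H3K4me3 peak, beside 99.1% of all CpG-rich coding genes. The 168 CpG-poor members had one in 128 cases (76.2%, interval 69.2 to 82.0%), beside 37.1% of all CpG-poor coding genes. For ATAC-seq the CpG-poor shares were 90.5% and 47.4%. CpG-poor members were not the poorest, so narrower classes were set side by side after these values were seen, for starts with at least 90% unique words. At ratios from 0.2 to 0.4, 25 of 31 members had an H3K4me3 peak (80.6%, interval 63.7 to 90.8%) and 37.8% of 2944 other coding genes. From 0.4 to 0.6, all 68 members had one, against 92.5% of 2593 other genes. Below 0.2, none of 8 members had one, which at this number allows a share of up to 32.4% by the Wilson interval, and 6.86% of 3266 others did. In the class from 0.2 to 0.4 the median ratio was 0.338 for members and 0.28 for others, so the classes were not matched within. These shares describe the lists and were not tested against each other.

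CpG-poor starts were more common among clustered genes. Only 80 of 192 clustered starts (41.7%) were CpG-rich, against 84 lone starts (68.3%). CpG-rich starts had an H3K4me3 peak in 78 of 80 clustered and 84 of 84 lone genes. CpG-poor starts had it in 88 of 112 clustered genes (78.6%) and 28 of 39 lone genes (71.8%). Where CpG-poor starts also had at least 90% unique words, a class set after the data had been seen, the counts were 61 of 64 clustered (95.3%) and 24 of 34 lone genes (70.6%). That difference was 24.7 points (Fisher's exact test p = 0.00113, adjusted p = 0.00452 over the 4 tests of this class). The adjustment does not cover the choice of the class, so p-values in it only describe these counts. ATAC-seq peaks at the start gave 61 of 64 and 26 of 34 (difference 18.8 points, Fisher's exact test, adjusted p = 0.0192). Last exons of these genes went the other way, with an ATAC-seq peak in 10 of 64 clustered and 15 of 34 lone genes (difference -28.5 points, Fisher's exact test, adjusted p = 0.00654), and for H3K4me3 the difference there was -7.72 points (Fisher's exact test, adjusted p = 0.441). The lone genes of this class included 6 with a ratio under 0.2 and the clustered genes 1, and none of these 7 had an H3K4me3 peak. At ratios from 0.2 to 0.4 the counts were 15 of 17 clustered and 7 of 11 lone genes, and from 0.4 to 0.6 every start of both groups had the peak.

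**Figure D3:**
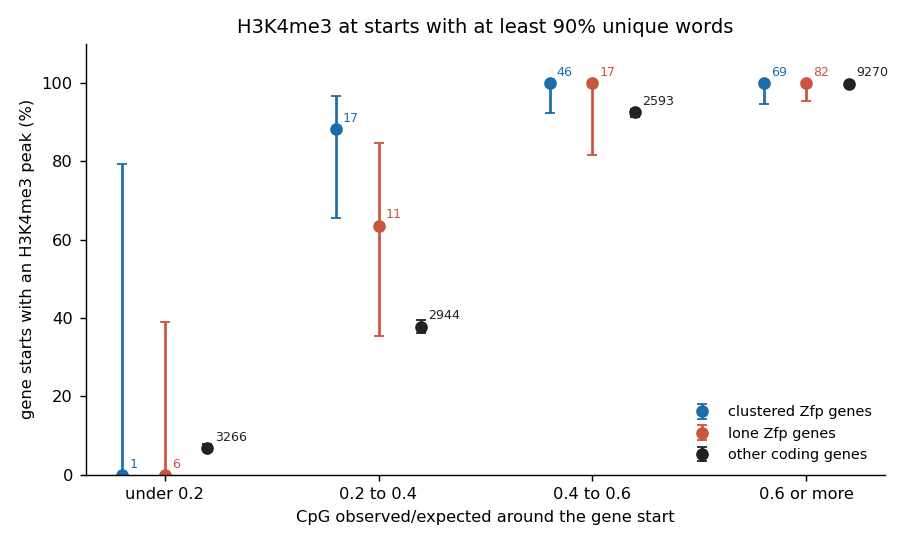
Share of gene starts with an H3K4me3 peak (vertical axis, %) in 4 classes of the ratio of observed to expected CpGs (horizontal axis), for starts with at least 90% unique words. Points are shares of clustered Zfp, lone Zfp and other coding genes, bars are 95% Wilson intervals and small figures the number of genes: above a ratio of 0.4 every Zfp start has the peak, and from 0.2 to 0.4 both Zfp groups lie above the 37.8% of other genes.

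Peaks at clustered starts were weaker and narrower than at lone starts. The fold enrichment that the authors give for the strongest H3K4me3 peak at the start ran from 3.26 to 64.4 in clustered genes, with a median of 26.9, and from 3.19 to 62.1 in lone genes, with a median of 34.0. The median over all coding genes was 31.0. Median peak widths were 1767 bp in clustered and 2385 bp in lone genes, and ATAC-seq peaks had median widths of 751 and 930 bp. In CpG-rich starts the median fold enrichment was 29.7 for clustered and 35.2 for lone genes, and in CpG-poor starts 24.3 and 31.7, so the order held in both classes. The ranges overlapped almost fully, and these differences were not tested.

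**Figure D4:**
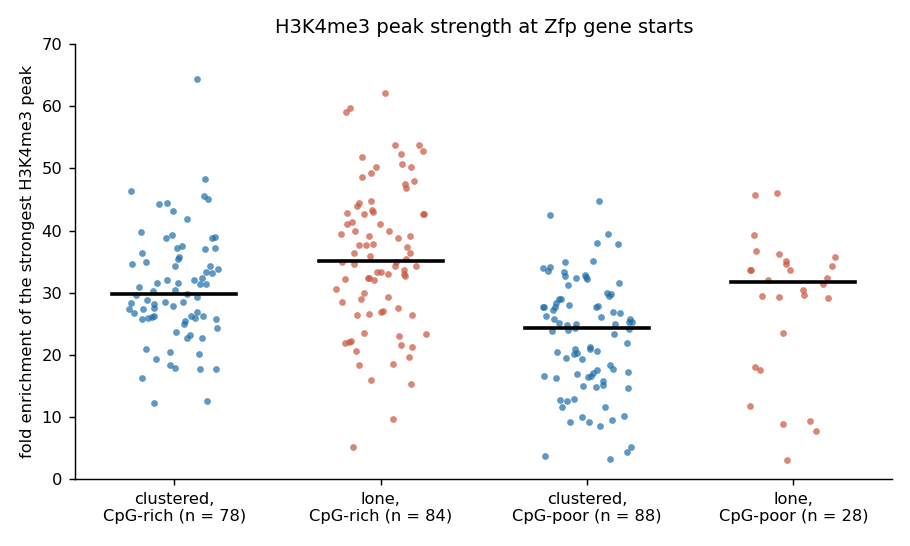
Fold enrichment given by the authors for the strongest H3K4me3 peak at the gene start (vertical axis), for clustered and lone Zfp genes with CpG-rich or CpG-poor starts. Each point is a gene with such a peak, the bars are medians, and the horizontal spread of points has no meaning: the medians of clustered genes, 29.7 and 24.3, lie under those of lone genes, 35.2 and 31.7.

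The strongest clustered start was that of Zfp866, at the end of a run of 5 on chromosome 8, with a fold enrichment of 64.4, above 99.2% of the coding genes with a peak. Its window also holds the start of Atp13a1, so the window is shared with that gene. Zfp597 (48.3) and Zfp397 (46.4) followed. The weakest clustered peaks were those of Zfp982 (3.26), Zfp458 (3.72) and Zfp990 (4.44), with 69.0%, 74.9% and 53.7% unique words. Of these, Zfp982 had its peak 267 bp beyond the 5′ end, while its ATAC-seq peak covered it. Among lone genes the strongest were Zfp384 (62.1), Zfp639 (59.7) and Zfp598 (59.1), a ubiquitin ligase of collided ribosomes. The weakest lone peaks were those of Zfp831 (3.19), Zfp541 (5.18), a factor of meiosis in spermatocytes, and Zfp750 (7.77), a factor of skin differentiation. All 3 lay in unique sequence.

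Most runs were marked throughout. Every start had an H3K4me3 peak in 20 of the 31 runs and an ATAC-seq peak in 25. The largest run, 19 genes from Zfp712 to Zfp273 on chromosome 13, had H3K4me3 peaks at 16 starts and ATAC-seq peaks at 17, although none of its starts was CpG-rich. The run from Zfp677 to Zfp946 on chromosome 17, with 18 genes that all held the KRAB pattern, had both peaks at all 18 starts. The 15 genes from Zfp84 to Zfp146 on chromosome 7, Zfp568 among them, also had both at every start. On the same chromosome the 12 genes from Zfp180 to Zfp575 had both peaks at 11 starts, and the 8 from Zfp553 to Zfp629 at all. The 8 genes from Zfp871 to Zfp563 on chromosome 17 were likewise complete.

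Runs on chromosomes 2 and 4 were the exception. Their 29 genes had H3K4me3 peaks at 12 starts (41.4%, interval 25.5 to 59.3%) and ATAC-seq peaks at 27 (93.1%), whereas the other 163 clustered genes had 154 (94.5%) and 158 (96.9%). In the run from Zfp968 to Zfp966 on chromosome 2, none of 4 starts had an H3K4me3 peak, all 4 had an ATAC-seq peak, and the median share of unique words was 0%. The 10 genes from Zfp989 to Zfp933 on chromosome 4 had ATAC-seq peaks at every start and H3K4me3 peaks at 5, with 36.4% unique words in the median. Its last gene, Zfp933, was the only one of the 10 with at least 90% unique words and had the strongest peak of the run (32.4). From Zfp990 to Zfp600, also on chromosome 4, H3K4me3 peaks lay at 1 of 5 starts and ATAC-seq peaks at 4. The run from Zfp120 to Zfp345 on chromosome 2, with 54.6% unique words, had both peaks at all 4 starts. In a setting added once the data had been seen, without the runs of both chromosomes, the difference between clustered and lone genes in H3K4me3 was 3.42 points.

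**Figure D5:**
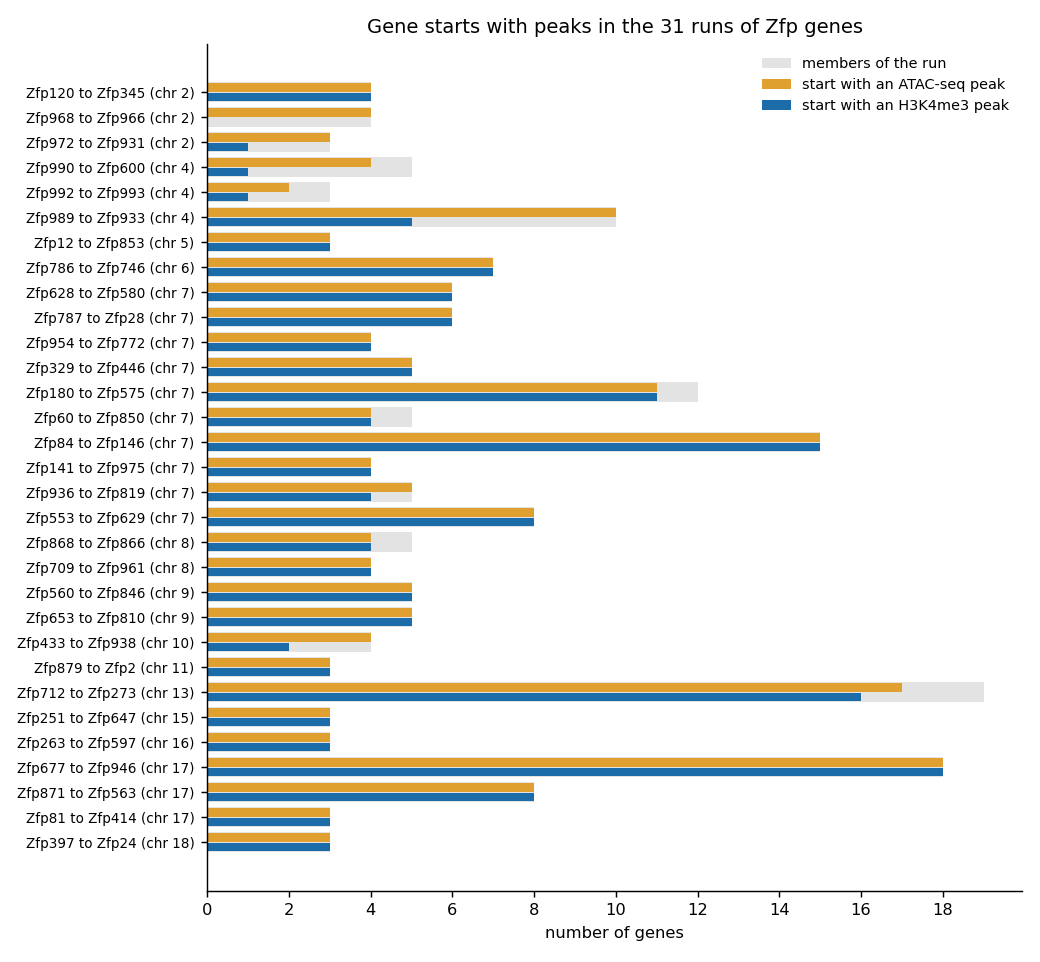
Number of genes (horizontal axis) in each of the 31 runs of Zfp genes, named by their outer members and chromosome. Grey bars give the members, orange bars the starts with an ATAC-seq peak and blue bars those with an H3K4me3 peak: blue is at most 50% of orange in 5 runs of chromosomes 2 and 4 and in 1 of chromosome 10.

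Between the starts, most but not all runs held more peaks per Mb than the genome. Peaks that touch the start window of any coding gene were left out, and so was the length of those windows, a count added after the data had been seen. The 9.32 Mb that remained in the 31 runs held 106 ATAC-seq and 22.1 H3K4me3 peaks per Mb, against 64.2 and 7.96 over the 19 chromosomes. Single runs lay above the chromosomes in 22 of 31 cases for ATAC-seq and in 26 for H3K4me3, and 3 runs held no H3K4me3 peak there. The runs of chromosomes 2 and 4 together held 144 ATAC-seq and 16.9 H3K4me3 peaks per Mb, although the run from Zfp968 to Zfp966 held 38.7 and none. The highest ATAC-seq densities, 231 and 196 per Mb, were those of the runs from Zfp989 to Zfp933 and from Zfp992 to Zfp993. The run from Zfp180 to Zfp575 followed with 192 per Mb. Median shares of unique words in the start windows of these runs were 36.4%, 47.4% and 97.6%. Those windows are left out of the densities, so the shares do not describe the sequence counted here. These densities were not tested, and starts of transcripts other than the 5′ ends of coding genes were not left out. The chromosomes were counted over their whole length, with gene-poor stretches and assembly gaps, while runs are bounded by gene starts, so the 2 are not alike.

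A list of 26 members with a known function was drawn up by hand and is not complete. It had H3K4me3 peaks at 25 starts and ATAC-seq peaks at 24, and 21 of the 26 starts were CpG-rich. Over all members the shares were 88.2% and 95.2%, and over all coding genes 66.4% and 72.2%. Of other coding genes with CpG-rich starts, 99.1% had an H3K4me3 peak. Of this list Zfp809, Zfp568 and Zfp110 were clustered, and functions of the members outside it were not examined. The 3 silencing genes were marked and open. Zfp809, which recognises the primer binding site of retroviruses, had a peak of 2454 bp with a fold enrichment of 27.0. Zfp932, which silences endogenous retroviruses, had 22.8 and Zfp568, which represses a placental transcript of Igf2, had 31.0 in a peak of 4958 bp. A list of 15 corepressor genes holds partners through which KRAB proteins act. Of these, 12 had an H3K4me3 peak at the 5′ end, where 66.4% of all coding genes had one. Atf7ip, Trim28 and Dnmt1 had none there, though Trim28 had an ATAC-seq peak. Only the annotated 5′ end was counted, and other transcript starts of these genes are not given here.

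Members that act in transcription were marked and open throughout. All 6 starts of this class were CpG-rich, and of all CpG-rich members 98.9% had an H3K4me3 and 99.5% an ATAC-seq peak. The 6 genes all had both peaks, with a median fold enrichment of 39.7. Zfp281, a transcription factor of embryonic stem cells, had 53.8, Zfp148, which binds GC-rich promoters, had 43.3 and Zfp410, an activator of Chd4, had 40.0. The peak of Zfp143, an activator of small nuclear RNA and many coding genes, had 33.0. Zfp296, found in embryonic stem and germ cells, was lowest at 23.4.

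Developmental members had wider peaks of lower enrichment than the members that act in transcription, a difference that was not tested. All 7 had an H3K4me3 peak, where 88.2% of all members had one, and 6 of the 7 starts were CpG-rich. The median width was 5416 bp and the median fold enrichment 21.3, where the 6 transcription genes had 2385 bp. Zfp503, a factor of striatal and limb development, had the widest peak of the class at 7998 bp and a fold enrichment of 26.9. Zfp423, a factor of cerebellar and fat cell development, had 5753 bp and 33.3. Zfp703, a factor of breast epithelium, had 5570 bp and 26.6. Zfp521, a factor of neural and blood progenitors, had 4553 bp and 21.3. The narrowest of the class was Zfp541 at 1517 bp.

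The remaining 10 genes of the list act mostly in RNA and protein turnover, and they were marked with 1 exception, Zfp473. They include Zfp110 and Zfp369, both partners of the neurotrophin receptor, and Zfp207, a protein of kinetochore and spindle. The other 9 had a median fold enrichment of 39.9 and CpG-rich starts but for Zfp36, which encodes the mRNA decay factor tristetraprolin. Zfp207 had 52.8, Zfp91, a ubiquitin ligase, had 42.6 and Zfp318, a regulator of immunoglobulin D transcripts, had 41.3. The strongest of the 2 H3K4me3 peaks in the window of Zfp36 had 32.1, and no peak of either list covered its 5′ end, the nearest lying 225 bp away for H3K4me3 and 507 bp for ATAC-seq.

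Other families of finger genes gave like counts, taken from symbols with the family name followed only by digits. Symbols with a letter after the number were not counted. H3K4me3 peaks lay at 32 of 34 Zbtb genes, 10 of 10 Zscan genes, 10 of 11 Zkscan genes and 15 of 16 Klf genes, the last 2 without Zkscan17 and Klf17. All of these starts had an ATAC-seq peak. Of all coding genes, 66.4% had an H3K4me3 and 72.2% an ATAC-seq peak at the start. The median ratio of observed to expected CpGs was 0.839 in Zbtb, 0.603 in Zscan, 0.599 in Zkscan and 0.875 in Klf genes. It was 0.615 in members and 0.568 in all coding genes, and the families were not matched for it. Members with the KRAB pattern had an H3K4me3 peak in 168 of 198 cases (84.8%) and the others in 145 of 157 (92.4%). The 22 KRAB genes with ATAC-seq alone make up most of the 26 such starts. At 24 of the 26, under 90% of the words were unique. Of the 59 clustered starts with under 90% unique words, 57 belonged to genes with the KRAB pattern. Of the 133 clustered starts with at least 90% unique words, 90 belonged to genes with the KRAB pattern, and none of the 133 had ATAC-seq alone. The parts of the KRAB pattern and of repeated sequence in these counts were not tested.

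Letters of some known promoter motifs were searched on both strands of the 300-base promoters. The letters ACTACAATT, part of the site of ZNF143, the human counterpart of Zfp143, were in 12 members (3.38%), 10 of them clustered and 1 lone, against 0.481% of all coding promoters. ETS letters CCGGAAGT were in 9.30% of members and 4.98% of all, and YY1 letters AANATGGCG in 6.76% and 3.48%. NRF1 letters GCGCANGCG were in 11.0% and 8.51%, and the GC box GGGCGG in 43.7% and 45.4%. TATAAA was in 3.94% of members and 11.6% of all, and CCAAT in 43.7% and 37.3%. A match is only a description of the letters. The ETS, YY1, NRF1 and GC box letters contain a CpG, and some members are close copies of each other.

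The 12 matches of the ZNF143 letters are shown because 5 of them lie in 1 run, that from Zfp180 to Zfp575, a choice made after the counts were seen. Capitals mark the letters searched, with 10 bases either side, read on the strand that holds them, in mm10.
Zfp992, chr4:146448916-146448944, plus strand: ttcctaaaggACTACAATTcccagcattc
Zfp933, chr4:147848432-147848460, minus strand: tttccaaagaACTACAATTcccagcattc
Zfp128, chr7:12881155-12881183, minus strand: ggacactgagACTACAATTcccagaaggc
Zfp180, chr7:24081867-24081895, minus strand: gctcaatggaACTACAATTcccagaactc
Zfp235, chr7:24134131-24134159, minus strand: tggcgctggaACTACAATTcccagaatgc
Zfp114, chr7:24175020-24175048, minus strand: tggagtgggaACTACAATTcccagaatgc
Zfp108, chr7:24254719-24254747, minus strand: tggctccagaACTACAATTcccagaatgc
Zfp93, chr7:24270339-24270367, minus strand: tggcgttggaACTACAATTcccagaattc
Zfp1, chr8:111643410-111643438, minus strand: gaggtgtaggACTACAATTcccataatgc
Zfp454, chr11:50887656-50887684, plus strand: tgtggccgaaACTACAATTcccagaaggc
Zfp692, chr11:58307011-58307039, plus strand: actaaggctaACTACAATTcccggcaggc
Zfp58, chr13:67500532-67500560, plus strand: cagtggccagACTACAATTcccacaagtc
In 9 of the 12 the letters ran on the strand opposite to the gene. An H3K4me3 peak lay at 11 of these 12 starts, where 88.2% of all members and 66.4% of all coding genes had one. Zfp992, with 47.4% unique words, had neither peak. In all 12 the letters were followed by ccc, so that the stretch they share is longer than the letters searched.

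Last exons of the members were long and held most of the fingers. Their median length was 2489 bp, against 1134 bp over all coding genes, and 98.5% of the fingers of clustered genes but 63.5% of those of lone genes were encoded there. An ATAC-seq peak lay in 26.5% of members' last exons, where 21.4% of all coding genes had one, and an H3K4me3 peak in 20.8%, where the background was 12.5%. Clustered genes had ATAC-seq peaks in 41 of 192 last exons (21.4%) and lone genes in 40 (32.5%), a difference of -11.2 percentage points (interval -21.3 to -1.25, Fisher's exact test p = 0.0342, adjusted p = 0.137). For H3K4me3 the counts were 36 (18.8%) and 26 (21.1%), a difference of -2.39 points (interval -11.8 to 6.38, Fisher's exact test p = 0.664, adjusted p = 0.664). Neither passed the threshold of 0.05 after adjustment. The ATAC-seq difference was -23.3 points among genes with CpG-poor starts (17 of 112 and 15 of 39, Fisher's exact test, adjusted p = 0.0214) and 0.238 among those with CpG-rich starts, in classes set after the data had been seen. Without the run of Zfp786 on chromosome 6, with ATAC-seq peaks in 5 of 7 last exons, the ATAC-seq difference was -13.1 points and passed (Fisher's exact test, adjusted p = 0.0421), and no other single run changed a call.

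Some of these peaks belong to a gene start, so they were counted again without those that touch the start window of any coding gene. Per kb of last exon, members then held 0.116 ATAC-seq peaks and other coding genes 0.131, while H3K4me3 peaks numbered 0.0785 and 0.0421 per kb. Among last exons of 1.5 to 4 kb, 43 of 229 members (18.8%, interval 14.3 to 24.3%) and 8.48% of 6312 other genes had such an H3K4me3 peak, and ATAC-seq gave 24.9% and 25.0%. H3K4me3 peaks with their midpoint in the exon had it in the coding part in 65 of 72 cases (90.3%), although the coding part was 44.8% of the exon. For ATAC-seq this was so in 62 of 109 (56.9%). In other genes the coding share was 66.1% for H3K4me3, with 22.7% of the exon coding.

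Those 66 last exons with H3K4me3 also held an ATAC-seq peak in 41 cases. In other coding genes, 1016 of 1316 such last exons did. Of the 66, 64 had a strongest H3K4me3 peak that covered no annotated transcript start of any kind. In other coding genes the median ratio of observed to expected CpGs was 0.418 in last exons with H3K4me3 and 0.246 in those without. The 66 had a median ratio of 0.385, against 0.248 in the 289 other last exons of members. Their median GC content was 50.8% against 41.8%. The strongest was that of Zfp697, a lone gene on chromosome 3, with a fold enrichment of 26.9 from 98426835 to 98429006, near the 29.5 at its start, and an ATAC-seq peak of 1456 bp within it. Zfp771 had 21.0 in a last exon with a CpG ratio of 1.14, and Zfp467 had 19.3. Zfp316 had the widest ATAC-seq peak of the members' last exons, 2278 bp, inside an H3K4me3 peak of 18.3 at chromosome 5, 143252371 to 143255814, and all 14 of its fingers are encoded in that exon. At Zfp672 an ATAC-seq peak of 1339 bp lay in an H3K4me3 peak of 8.61. Median fold enrichment over the 66 was 5.26, far under the 29.3 of peaks at members' starts.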

How the data were processed

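H3K4me3 ChIP-seq and ATAC-seq peak lists of F123 cells were used, each deposited by the authors as a single list for 2 replicates. The H3K4me3 list was made by the authors through ENCODE's histone ChIP-seq pipeline, left at its defaults, and its deposited columns give positions, a fold enrichment (a ratio), −log10 p and q values, a score and the summit. The aligner and thresholds of that list are not given in the sources used here. For ATAC-seq the authors aligned reads with Bowtie 1.1.2, called peaks with MACS2 2.1.1.20160309, filtered with samtools and bedtools 2.27.1, per the study's methods and their processing notes, and kept pooled peaks found in both replicates. They deposited positions only. Neither list holds read counts, so depth is unknown.

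Positions were compared with mm10 (GRCm38.p6) and GENCODE M21. A peak was counted at a window or exon when they shared at least 1 bp. Fold enrichment was used only to describe and rank peaks. Members and gene lists were chosen with earlier results of these data known. Named genes were those of a role list, the outer members of runs of 8 or more, the 3 highest and 3 lowest clustered and lone starts by fold enrichment, the 3 widest ATAC-seq peaks without H3K4me3, and the 3 widest ATAC-seq and 3 strongest H3K4me3 peaks of last exons. The genes without a peak in either list were named as well, and so were the other exceptions to a count, after their values were seen.

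Clustered and lone genes were compared by a two-sided Fisher's exact test, with Benjamini-Hochberg adjustment over 4 tests. Fingers were matched as C, 2 to 4 residues, C, 12 residues, H, 3 to 5 residues, H in the translated coding sequence. Unique words were counted on both strands of the reference genome. Overlaps were checked against bedtools 2.31.1, and the test was tested on simulated data. The software was numba 0.67.0, scipy 1.17.1, numpy 2.4.6, pandas 2.3.3 and matplotlib 3.10.9 under Python 3.11.15. Alternatives changed the window, the start, the peak threshold, the overlap, the spacing of runs and the members kept. The PLAC-seq samples and ChIP-seq inputs were not analysed here.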

Additional observations from a re-analysis of the deposited data

How the results depend on the processing

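No paired analysis was possible because the replicates of an assay share a single peak list, and leaving out a replicate was not possible for the same reason. Differences are clustered minus lone genes, in percentage points. Each p is from Fisher's exact test, adjusted over the 4 tests of its setting and not over the settings tried.

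The H3K4me3 difference at the start, -4.60 as reported, was reversed in 5 of 20 alternatives. It was 7.89 with runs spaced by at most 100 kb (exact test, adjusted p = 0.112) and 6.37 with at least 90% unique words (exact test, adjusted p = 0.143). Among settings chosen after seeing the data it was 3.42 without the runs of chromosomes 2 and 4, 6.78 for CpG-poor starts alone, and 24.7 for CpG-poor starts with at least 90% unique words (exact test, adjusted p = 0.00452). Leaving out each run in turn gave -6.00 to -2.60. The ATAC-seq difference at the start, 3.67 as reported, passed the threshold in 2 settings chosen after seeing the data, with 14.3 for CpG-poor starts alone (exact test, adjusted p = 0.0488) and 18.8 for those with at least 90% unique words, and leaving out each run gave 3.29 to 4.43. For last exons the ATAC-seq difference, -11.2 as reported, was -15.1 and passed with runs spaced by at most 1000 kb (exact test, adjusted p = 0.0360). In settings chosen after seeing the data it was -23.3 for CpG-poor starts alone (exact test, adjusted p = 0.0214), -28.5 for those with at least 90% unique words (exact test, adjusted p = 0.00654), and reversed at 0.238 for CpG-rich starts alone. Leaving out each run in turn gave -13.1 to -9.40, and only the lowest, without the run of Zfp786, passed (exact test, adjusted p = 0.0421). The H3K4me3 difference in last exons stayed short of the threshold in all 17 alternatives and kept its direction in 16, with 7.14 for CpG-rich starts alone, also chosen after seeing the data. For these changes the cause was not tested.

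The share of members with H3K4me3 at the start, 88.2% as reported, was 91.5% at any coding transcript start and higher still with at least 90% unique words. For ATAC-seq, 95.2% as reported, it was 91.0% where the 5′ end itself had to lie in a peak and 97.2% at any coding transcript start. Peaks as called, without read counts or values per replicate, limit every result above. The runs of chromosomes 2 and 4 lie mostly in repeated sequence, whose part in their H3K4me3 calls was not tested on reads.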

Other observations

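Chromosome X, which the choice of genes leaves out, holds 7 protein-coding Zfp genes of the same naming. All 7 had both an H3K4me3 and an ATAC-seq peak at the start, which at this number allows a true share as low as 64.6% by the 95% Wilson interval.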
